A study of Homo sapiens with 9 samples.

Results

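The genes described here are 33 human genes that melanoma biology ties to an invasive, mesenchymal cell state. They were listed by symbol and looked up by Ensembl identifier in the deposited count tables, which hold 57820 identifiers, and all 33 were found. They cover the cytoskeleton (VIM, TPM1, FLNA), S100 proteins and an annexin (S100A2, S100A4, S100A6, S100A10, ANXA1), transcription factors (ZEB1, ZEB2, SNAI1, SNAI2, TWIST1, TWIST2, SOX9), cadherins (CDH1, CDH2, CDH11), matrix proteins (TGFBI, THBS1, TNC, FN1, LAMB3), surface receptors (CD44, NT5E, NRP1, NGFR, F2RL1), plasminogen activation (PLAU, PLAUR) and caveolae (CAV1, CAVIN1, CAVIN2). All 33 passed the filter on low counts that kept 18618 genes for testing.

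RNA was sequenced from tumours that A375 cells, an established human melanoma line with mutant BRAF, had formed in nude mice, a host that lacks T cells. Cells of every group held a construct that doxycycline (Dox) induces. The groups were RNF4 with Dox, RING mutant of RNF4 with Dox, and RNF4 without Dox, with 3 libraries each. RNF4 is a ubiquitin ligase that recognises SUMO-modified proteins, and the RING mutant lacks ligase activity. Dox was in the drinking water from day 3, tumours were taken at day 30, and each library pooled 2 tumours. The label of the last group does not match the control named in the series text, which is GFP, and the groups here follow the sample titles. No group analysed here combined Dox with an empty construct, so Dox and the construct cannot be told apart when RNF4 with Dox is set against RNF4 without Dox. Both contrasts with the RING mutant also set cells with different constructs against each other. Ligase activity cannot be told apart there from other differences between those cells. Nothing in the labels says that the cultures or animals of different libraries were independent beyond their being separate samples, so p-values measure the spread between these libraries.

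Melanoma cells move between a differentiated, proliferative state driven by the factor MITF and a dedifferentiated, invasive state in which MITF is low and receptors such as AXL and NGFR, matrix genes and S100 proteins are high. Part of the invasive programme is shared with the epithelial to mesenchymal transition, in which transcription factors of the ZEB, SNAIL and TWIST families repress E-cadherin (CDH1) while N-cadherin (CDH2) and vimentin (VIM) are gained. In melanoma these factors have a particular division of labour, since ZEB2 and SNAI2 are normal factors of the melanocyte lineage while ZEB1 and TWIST1 go with the invasive state.

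Libraries are named by their column in the tables: RNF4 with Dox has T2, T5 and T13, RING mutant with Dox has T3, T6 and T14, and RNF4 without Dox has T1, T4 and T12. Total counts lay between 16416426 in T14 and 28934692 in T4, so members at 10 CPM (reads scaled to the library's total) or more rest on over 100 reads in every library. RNF4 itself was at 380, 413 and 454 CPM in RNF4 with Dox, at 47.0 (T3), 559 (T6) and 63.5 (T14) CPM in the libraries labelled RING mutant with Dox, and at 33.4, 52.0 and 43.2 CPM in RNF4 without Dox. The libraries T3 and T14, labelled RING mutant with Dox, thus had RNF4 near the level of RNF4 without Dox, which goes against their label. Medians over all 33 members, and most changes of single members quoted from contrasts with the RING mutant group, are therefore given with and without them. The libraries T1 and T2 also stood apart, with 24.9% and 15.2% of counts in ribosomal protein genes against 6.01% to 8.98% in the other 7.

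All 33 genes had reads in every library. Their mean levels per length ran from rank 22 to rank 17837 among the 18163 tested genes with a known transcript length. Levels are compared between genes as CPM per kilobase of transcript. S100A6, a calcium-binding protein, was the most abundant member at 2764 CPM per kb (mean of 9 libraries). The secreted matrix protein TGFBI followed at 1350 and the intermediate filament vimentin at 1277 CPM per kb. In all, 17 members lay in the top 10 percent of those ranked genes, and 12 exceeded 100 CPM per kb. The lowest were E-cadherin (CDH1) at 0.129 and the caveolar coat protein CAVIN2 at 0.380 CPM per kb. Within roles, the spread was wide: S100A2 was at 71.4 CPM per kb against 2764 for S100A6, and the protease PLAU was at 4.68 against 86.9 for its receptor PLAUR.

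**Figure D1:**
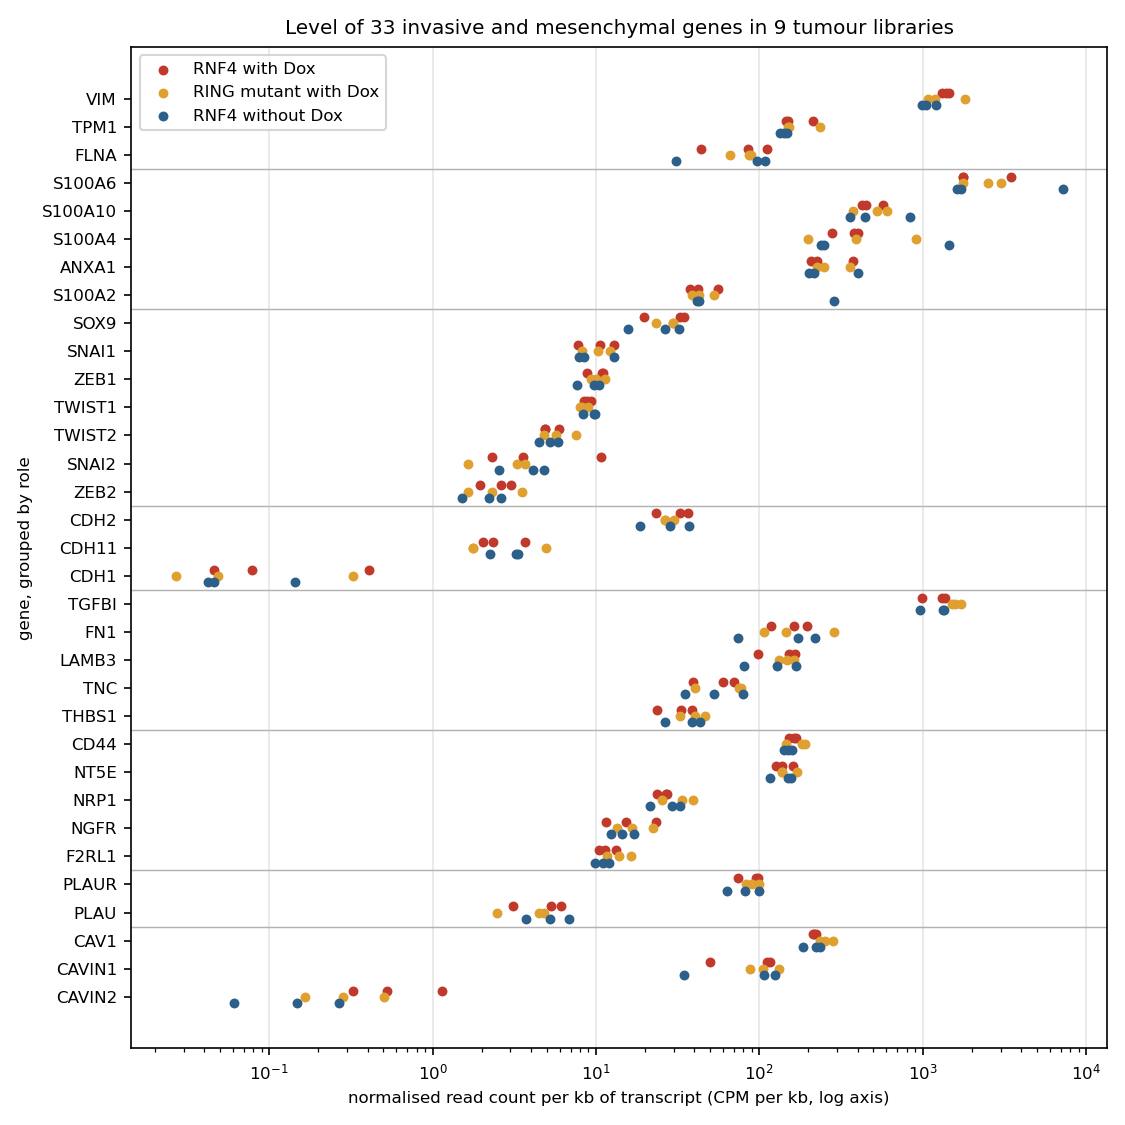
Level of each of the 33 genes in 9 libraries, as CPM per kb of transcript on a log axis, with 1 point per library and colour by group. Genes are grouped by role and ordered by mean level within a role. S100A6 (mean 2764), TGFBI (1350) and VIM (1277) are highest, CDH1 (0.129) and CAVIN2 (0.380) are lowest, and the colours overlap for most genes.

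The state of the cells can be read beside other genes of the same contrast. The invasive-state receptor kinase AXL was at 692 to 935 CPM in RNF4 with Dox, 761 to 890 CPM in RING mutant with Dox and 436 to 774 CPM in RNF4 without Dox. MITF, the master factor of the melanocyte lineage, was between 10.6 and 22.1 CPM over the 9 libraries, and MLANA, a melanosome antigen that MITF drives, between 0.738 and 1.88 CPM. AXL was thus far above MLANA in reads in all 9 libraries. SOX10, another gene of the melanocyte list described further on, was not low like MLANA. It had 39.0, 54.9 and 45.6 CPM in RNF4 with Dox, and 80.9, 61.0 and 48.4 CPM in RING mutant with Dox. In RNF4 without Dox it had 58.5, 66.4 and 69.6 CPM, all above RNF4 with Dox, where 2.32% of all genes had groups apart. SOX10 did not pass after adjustment over all genes. Other melanosome genes set T14 apart: PMEL was at 10.2 CPM there against 0.743 to 2.04 CPM in the other 8, DCT at 6.93 against 0.0684 to 0.593 CPM, and TYRP1 at 8.13 against 0.205 to 0.909 CPM.

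The first contrast, RNF4 with Dox over RNF4 without Dox, compares tumours with Dox and raised RNF4 against tumours with neither. None of the 33 passed the test (edgeR's quasi-likelihood F-test with Benjamini-Hochberg adjustment over all 18618 genes, adjusted p under 0.05), and 0.0% of all tested genes did. The smallest adjusted p of a member was 0.99998. At an unadjusted p under 0.05, CAVIN2 was the single member, where 0.596% of all genes, 111 of them, reached that mark. DESeq2 called 3 genes, edgeR's likelihood ratio test 1 and limma's voom fit 0, with 0 members in each. The fitted log2 change was above 0 for 23 members and below 0 for 10, with a median of 0.04, where 44.3% of all genes were above 0 and their median was -0.03. This split depended on single libraries. Without T1 it was 19 above and 14 below, where 51.7% of all genes were above 0. Without T13 it was 17 above and 16 below with a median of 0.007, where 44.8% of all genes were above 0. Values of all 3 libraries of RNF4 with Dox lay above all 3 of RNF4 without Dox for VIM and CAVIN2, and below for no member, where 2.32% of all genes had groups that did not overlap.

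The contrast of RNF4 with Dox over RING mutant with Dox sets cells with different constructs against each other, so it does not isolate ligase activity. In T3 and T14 of the RING mutant group, RNF4 was also near the level of RNF4 without Dox. No member passed the same test, as no gene did (0.0%), and the smallest adjusted p of a member was 0.99988. No member reached an unadjusted p under 0.05, against 1.35% of all genes, 251 in number, and DESeq2 called 1 gene, the likelihood ratio test 3 and voom 0, with 0 members in each. Of the members, 12 had a log2 change above 0 and 21 below 0, with a median of -0.06, where 55.8% of all genes were above 0 with a median of 0.03. Without T3 and T14 the split turned to 25 above and 8 below, with a median of 0.12, where 59.9% of all genes were above 0 with a median of 0.07. The median was also just above 0 without T3 alone (0.03), without T2 alone (0.003) and with voom (0.02). It stayed below 0 when any other single library was left out. Groups did not overlap for TGFBI and CAV1, both lower in RNF4 with Dox, where 4.98% of all genes had groups apart.

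The last contrast, RING mutant with Dox over RNF4 without Dox, also gave 0 calls among members and among all genes (0.0%), with a smallest adjusted p of 0.99996. No member reached an unadjusted p under 0.05, against 325 of all genes (1.75%), and DESeq2 called 4 genes, the likelihood ratio test 5 and voom 0, with 0 members in each. The log2 change was above 0 for 24 members and below 0 for 9, with a median of 0.15, where 43.2% of all genes were above 0 with a median of -0.04. Without T3 and T14 the split was 13 above and 20 below and the median -0.05, where 36.7% of all genes were above 0 with a median of -0.09. The median of the members thus fell further than that of all genes when these libraries were left out. TPM1, TGFBI and CAV1 were higher in all 3 libraries labelled RING mutant with Dox than in any library of RNF4 without Dox and no member was lower, where 3.78% of all genes had groups apart. These contrasts share libraries in pairs, so their values are not independent of each other. An exact permutation test of 3 libraries against 3 cannot go below p = 0.10, which limits each comparison of this size.

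**Figure D2:**
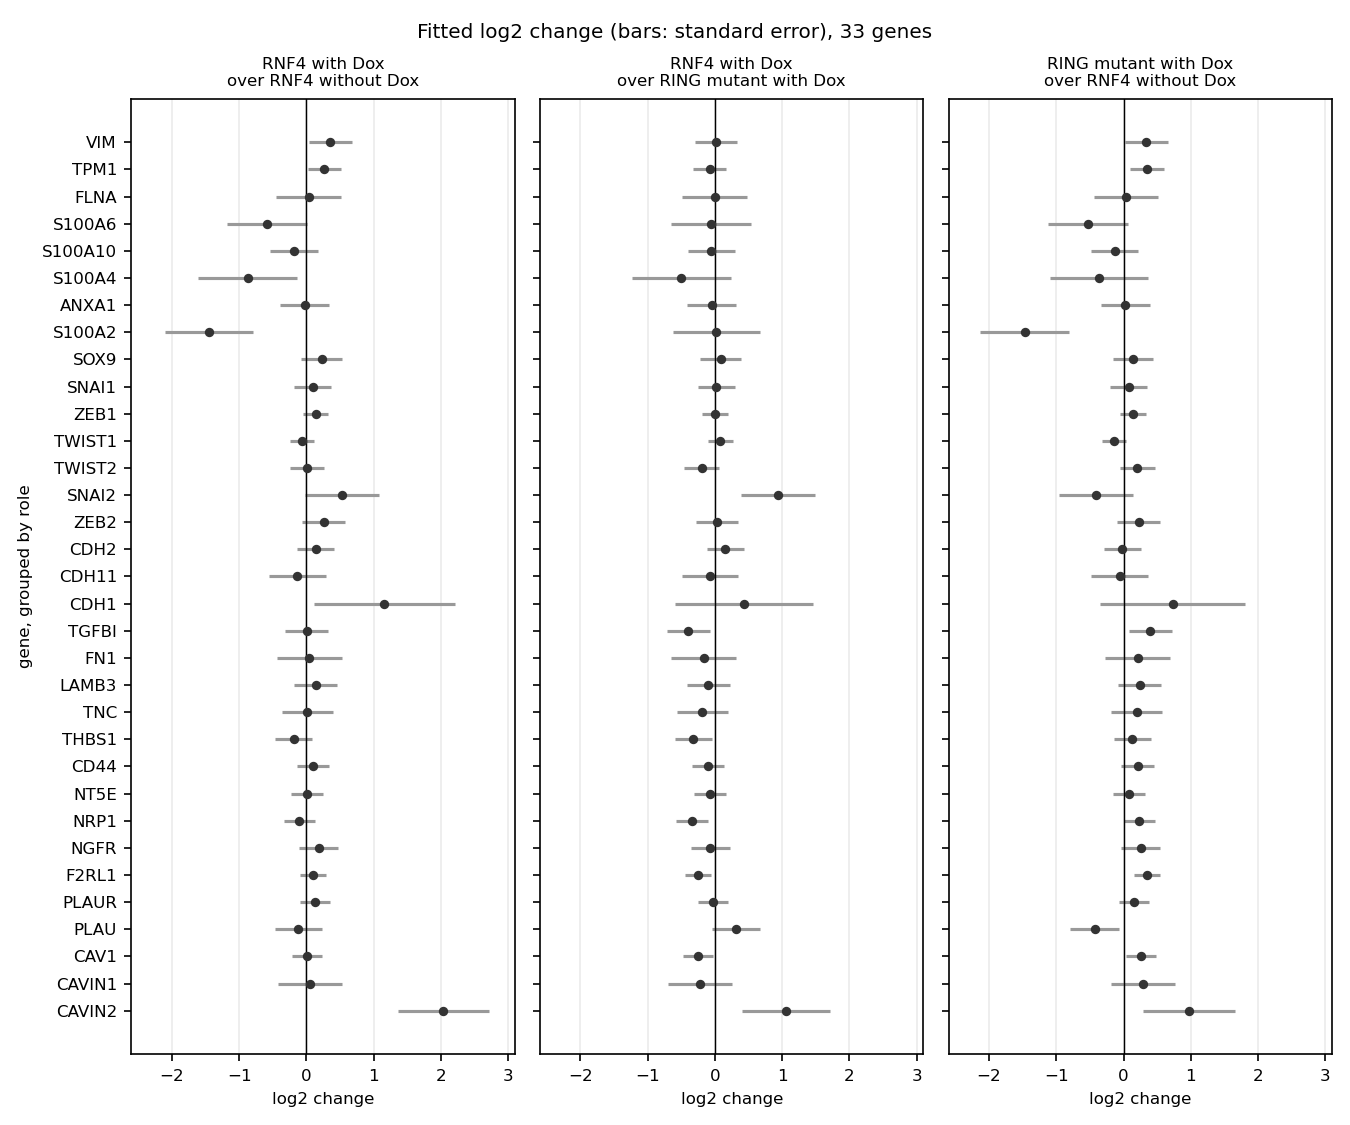
Fitted log2 change of each of the 33 genes in 3 contrasts (points) with its standard error (bars), genes grouped by role. CAVIN2 is farthest right in the first panel at 2.03 and S100A2 farthest left at -1.45, while for most genes the bar of 1 standard error crosses or comes close to 0.

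Among the cytoskeletal genes, vimentin, which builds the intermediate filaments of mesenchymal cells, had 2964, 3091 and 2811 CPM in RNF4 with Dox (T2, T5, T13). It had 3899, 2302 and 2551 CPM in RING mutant with Dox (T3, T6, T14) and 2128, 2570 and 2224 CPM in RNF4 without Dox (T1, T4, T12). All 3 libraries of RNF4 with Dox were above all 3 of RNF4 without Dox, but T3 of the RING mutant was higher than any. The log2 change of RNF4 with Dox over RNF4 without Dox was 0.36 ± 0.32 (SE, n = 3 each, edgeR adjusted p = 0.99998), about the size of its error. Leaving out each library in turn gave 0.31 to 0.44. Tropomyosin 1 (TPM1), which stabilises actin filaments, had 157, 153 and 223 CPM in RNF4 with Dox, 159, 158 and 247 CPM in RING mutant with Dox and 148, 155 and 140 CPM in RNF4 without Dox. T14 and T13 were high and the other 7 lay between 140 and 159 CPM. The RING mutant group and RNF4 without Dox did not overlap, yet T14 alone carried most of the gap: the log2 change of 0.35 ± 0.25 (SE, n = 3 each, edgeR adjusted p = 0.99996) was 0.10 without T14 and also 0.10 without T3 and T14. In T14 the summed level of 12 skeletal muscle markers was 843 CPM, followed by 233 CPM in T13 and 15.8 to 118 CPM in the other 7 libraries. TPM1 is also abundant in muscle, and the part of those reads in the TPM1 value was not tested, nor was that of mouse reads. In bulk tissue fewer cells of a type and less RNA per cell cannot be told apart. The actin crosslinker FLNA ranged from 264 CPM in T1 to 951 CPM in T5, with the T1 and T2 values (264 and 372 CPM) below all others.

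The S100 genes and annexin A1 varied more between libraries than any other role with more than 3 members, with a median ratio of highest to lowest library of 4.40. S100A2, S100A4 and S100A6 lie close together on chromosome 1 of GRCh38, all on the minus strand: S100A2 at 153561108 to 153567890, S100A4 at 153543613 to 153550136 and S100A6 at 153534599 to 153536244. S100A10 lies at 151982915 to 151994390 on the same chromosome. S100A4 is known for binding myosin and promoting cell motility, S100A10 forms a complex with annexin A2 at the membrane, and S100A2 is best known from epithelial cells. S100A2 had 56.0, 37.6 and 42.4 CPM in RNF4 with Dox, 53.0, 38.8 and 42.4 CPM in RING mutant with Dox, and 287, 41.4 and 42.5 CPM in RNF4 without Dox. T1 stood 6.77 times above the median library, and the other 8 libraries lay between 37.6 and 56.0 CPM. S100A4 had 240, 168 and 229 CPM in RNF4 with Dox, 233, 548 and 119 CPM in RING mutant with Dox, and 870, 144 and 149 CPM in RNF4 without Dox. Here T1 and T6 were high. S100A6 had 2351, 1182 and 1183 CPM in RNF4 with Dox, 2043, 1691 and 1187 CPM in RING mutant with Dox, and 4843, 1099 and 1161 CPM in RNF4 without Dox, again with T1 highest.

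In the fit, all 5 genes of this role were below 0 in RNF4 with Dox over RNF4 without Dox (median log2 change -0.59), with S100A2 at -1.45 ± 0.66 and S100A4 at -0.87 ± 0.74 (SE, n = 3 each, edgeR adjusted p = 0.99998 for both). Without T1, all 5 were above 0 with a median of 0.38, S100A2 was at 0.12 and S100A4 at 0.54. Without T1 and T2, 4 were above 0 and 1 below, with a median of 0.07. With the runs of column numbers described further on as a replicate block, S100A2 was at -0.96 and S100A4 at -0.46. In RING mutant with Dox over RNF4 without Dox, 1 was above 0 and 4 below (median -0.37), and all 5 were above 0 without T1. Without T14, or with an offset for transcript length chosen after seeing the data, 3 were above 0 and 2 below there, with medians of 0.02 and 0.01. It stayed at 1 above and 4 below without T13 (median -0.38) and without T3 and T14 (median -0.13). The direction of the whole role thus turned with some single libraries, T1 most of all, and stayed with others. T1 was also the highest library for S100A10, at 1008 CPM against 434 to 723 in the rest, and for ANXA1, at 889 CPM, where T2 and T3 followed at 823 and 797 CPM and the other 6 lay between 448 and 548 CPM.

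**Figure D3:**
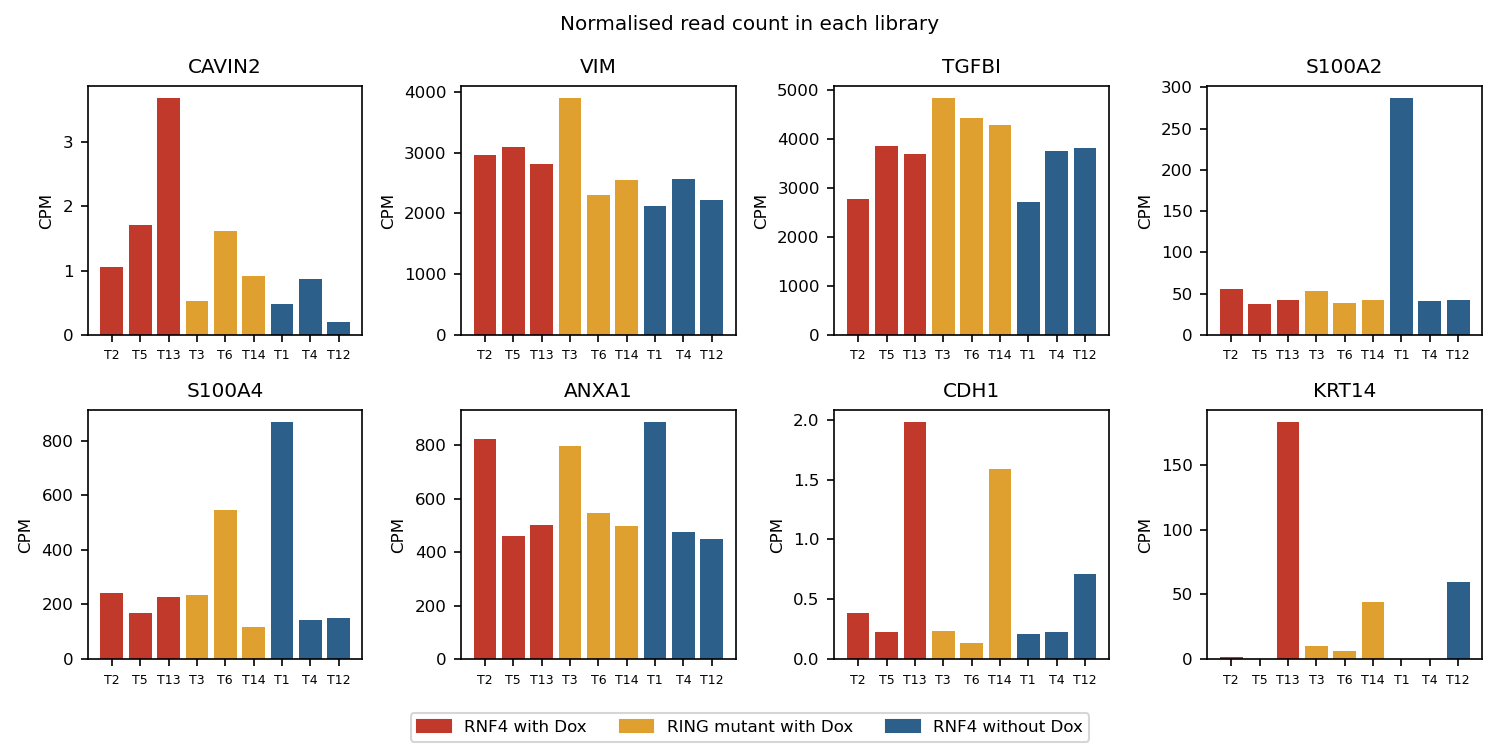
Normalised read count (CPM, bars) of 8 genes in each of the 9 libraries, colour by group. S100A2 and S100A4 are highest in T1, ANXA1 is high in T1, T2 and T3, TGFBI is highest in the RING mutant group, and CDH1 follows the keratin KRT14 in being highest in T13, T12 and T14.

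Because the S100 genes shared their high library, their promoters are shown, from RefSeq on GRCh38.p14, 250 bases before to 50 after the RefSeq start, 5′ to 3′ on the minus strand. Capitals mark a match to one of 3 motifs searched on both strands: the E-box CAGGTG bound by ZEB and SNAIL factors, the AP-1 site TGANTCA, and the TEAD site GGAATG. The windows are chr1:153565795-153566094 for S100A2, chr1:153545757-153546056 for S100A4 and chr1:153535942-153536241 for S100A6.
S100A2: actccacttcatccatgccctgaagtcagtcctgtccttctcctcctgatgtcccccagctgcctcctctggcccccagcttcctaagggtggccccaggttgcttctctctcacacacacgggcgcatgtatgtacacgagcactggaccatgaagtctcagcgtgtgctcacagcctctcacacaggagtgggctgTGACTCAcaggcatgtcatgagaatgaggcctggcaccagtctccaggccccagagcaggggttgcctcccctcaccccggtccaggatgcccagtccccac
S100A4: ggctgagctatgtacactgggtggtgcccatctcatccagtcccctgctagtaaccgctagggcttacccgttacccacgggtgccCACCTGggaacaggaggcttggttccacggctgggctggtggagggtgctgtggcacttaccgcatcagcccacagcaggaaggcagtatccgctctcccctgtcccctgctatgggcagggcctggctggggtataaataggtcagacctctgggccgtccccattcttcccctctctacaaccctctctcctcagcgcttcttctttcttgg
S100A6: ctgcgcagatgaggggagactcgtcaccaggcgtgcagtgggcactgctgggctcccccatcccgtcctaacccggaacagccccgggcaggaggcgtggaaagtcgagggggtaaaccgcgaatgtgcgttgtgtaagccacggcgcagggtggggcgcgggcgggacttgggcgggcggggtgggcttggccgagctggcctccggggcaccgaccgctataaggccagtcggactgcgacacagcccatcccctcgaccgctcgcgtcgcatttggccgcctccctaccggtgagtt
S100A2 held an AP-1 match that began 52 bases before the start, S100A4 an E-box match at 164 bases before it, in the reverse orientation, and S100A6 none of the 3. The genes that shared a high library thus did not share any of these letters in this window. Of the 33 members, 24 had a promoter entry: CAGGTG stood in 4 of them (16.7%, against 20.6% of 27305 promoters), TGANTCA in 2 (8.33% against 7.76%) and GGAATG in 4 (16.7% against 14%). The other AP-1 match was in PLAUR, at 186 bases before the start.

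The transcription factors were low and steady compared with the structural genes. Their median level was 8.86 CPM per kb, with SOX9, a neural crest factor, highest at 27.2 and ZEB2 lowest at 2.38. ZEB1 was above ZEB2 in all 9 libraries per kb, by 2.94 to 5.60 times in RNF4 with Dox, 2.85 to 6.95 times in RING mutant with Dox and 3.99 to 5.08 times in RNF4 without Dox. TWIST1 was the steadiest of all 33 members: 14.1, 14.7 and 15.6 CPM in RNF4 with Dox, 13.4, 13.6 and 14.9 CPM in RING mutant with Dox, and 16.3, 16.1 and 13.9 CPM in RNF4 without Dox, a ratio of highest to lowest of 1.22 over the 9 libraries. TWIST1 was above TWIST2 per kb in every library as well, by 1.06 to 1.92 times. SOX9 had 77.9, 129 and 136 CPM in RNF4 with Dox, 116, 92.0 and 116 CPM in RING mutant with Dox, and 61.8, 127 and 104 CPM in RNF4 without Dox, so that the 2 lowest values were those of T1 and T2.

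SNAI2, the SNAIL family member of the neural crest and melanocyte lineage, varied most among the factors. It had 26.0, 8.74 and 5.62 CPM in RNF4 with Dox, 4.03, 8.92 and 8.01 CPM in RING mutant with Dox, and 11.8, 9.98 and 6.21 CPM in RNF4 without Dox. T2 stood 2.98 times above the median library and the groups overlapped. The log2 change of RNF4 with Dox over RING mutant with Dox was 0.94 ± 0.55 (SE, n = 3 each, edgeR adjusted p = 0.99988) 0.04 without T2, and 0.59 without T3 and T14. SNAI1, whose protein represses CDH1, lay between 13.1 and 21.7 CPM, and TWIST2 between 6.33 and 10.7 CPM, with overlapping groups in all 3 contrasts.

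The cadherins showed the mesenchymal pattern in every library. CDH2, N-cadherin, had 101, 142 and 158 CPM in RNF4 with Dox, 114, 131 and 114 CPM in RING mutant with Dox, and 80.3, 123 and 160 CPM in RNF4 without Dox. CDH1, E-cadherin, the adhesion molecule of epithelia, had 0.383, 0.224 and 1.98 CPM in RNF4 with Dox, 0.237, 0.131 and 1.59 CPM in RING mutant with Dox, and 0.205, 0.225 and 0.707 CPM in RNF4 without Dox. Per kb, CDH2 exceeded CDH1 by 89.6 to 715 times in RNF4 with Dox, 80.9 to 1127 times in RING mutant with Dox and 256 to 620 times in RNF4 without Dox. CDH1 was highest in T13, T14 and T12, which belong to 3 different groups. The log2 change of CDH1 in RNF4 with Dox over RNF4 without Dox, 1.16 ± 1.05 (SE, n = 3 each, edgeR adjusted p = 0.99998), was -0.34 without T13. The basal keratin KRT14 was at 183 CPM in T13, 43.8 in T14 and 59.3 in T12, against 0.193 to 9.95 CPM in the other 6 libraries, and the summed level of 10 keratinocyte markers was 622, 248.7 and 233 CPM in those 3 libraries. Of the other 6 libraries, T1 had 282 CPM over that list and the rest 124 to 165 CPM, with 2 to 4 of the 10 markers at 0 counts. The part of keratinocyte RNA in the CDH1 values was not tested, nor was that of mouse reads, as the labels name only a human genome. CDH11, a cadherin of mesenchymal cells, ranged from 12.1 CPM in T6 to 33.9 CPM in T14, with T13, T14, T4 and T12 at 22.3 CPM or more. The summed fibroblast markers were also highest there, at 2126 to 4115 CPM in those 4 libraries against 684 to 1249 CPM in the other 5. That sum was mostly collagen, with COL1A1 at 2042, COL3A1 at 1087 and COL1A2 at 817 CPM in T14. COL1A1 and COL1A2 were highest in the same 4 libraries. COL3A1 was higher in T2 and T1 (492 and 480 CPM) than in T4 and T12 (432 and 407 CPM). PDPN, also of that list, was lowest in the group of T14, with a mean of 0.394 CPM. Neither the part of fibroblast RNA nor that of mouse reads in the CDH11 values was tested.

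Among matrix proteins TGFBI, a secreted protein induced by TGF-beta that binds collagen and integrins, had 2762, 3850 and 3678 CPM in RNF4 with Dox. It had 4832, 4424 and 4270 CPM in RING mutant with Dox and 2708, 3740 and 3808 CPM in RNF4 without Dox. All 3 libraries labelled RING mutant with Dox were above the other 6. The log2 change was -0.39 ± 0.32 in RNF4 with Dox over RING mutant with Dox and 0.40 ± 0.32 in RING mutant with Dox over RNF4 without Dox (SE, n = 3 each, edgeR adjusted p = 0.99988 and 0.99996). T3 and T14, with RNF4 near the level without Dox, and T6, with the highest RNF4 of all, had TGFBI values within 4270 to 4832 CPM. Without T3 and T14, which leaves T6 alone in its group and assumes that it varies like the rest, the changes were -0.37 ± 0.52 and 0.38 ± 0.52 (SE). All 5 matrix genes were below 0 in RNF4 with Dox over RING mutant with Dox (median -0.19) and above 0 in RING mutant with Dox over RNF4 without Dox (median 0.21). Without T3 and T14, 3 were above and 2 below in the first of these contrasts, and 2 above and 3 below in the second. Without T1 alone, all 5 stayed below 0 in the first, while the second had 2 above and 3 below (median -0.04).

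Fibronectin (FN1), the adhesive glycoprotein of mesenchymal matrix, had 929, 1558 and 1294 CPM in RNF4 with Dox, 1150, 841 and 2250 CPM in RING mutant with Dox, and 582, 1355 and 1734 CPM in RNF4 without Dox. Its groups overlapped, T14 was highest and T1 lowest. The laminin chain LAMB3 lay between 347 CPM in T1 and 721 CPM in T12, tenascin C (TNC) between 269 CPM in T1 and 612 CPM in T12, and thrombospondin 1 (THBS1) between 185 CPM in T2 and 360 CPM in T14. For each of these 4 genes the lowest value was thus in T1 or T2.

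The surface receptors varied little. CD44, a hyaluronan receptor and the most abundant of them at 161 CPM per kb, had 935, 964 and 870 CPM in RNF4 with Dox, 1100, 831 and 1047 CPM in RING mutant with Dox, and 859, 814 and 904 CPM in RNF4 without Dox. NT5E (CD73), which makes adenosine outside the cell, lay between 414 and 604 CPM. NGFR, the receptor CD271 of the neural crest-like melanoma state, was highest in T13 and T14 at 79.5 and 76.5 CPM and lay between 39.5 and 58.6 CPM in the other 7. The co-receptor NRP1 had 140, 160 and 158 CPM in RNF4 with Dox, 199, 149 and 230 CPM in RING mutant with Dox, and 126, 172 and 194 CPM in RNF4 without Dox. T3 and T14 were its 2 highest libraries, and the log2 change of RNF4 with Dox over RING mutant with Dox, -0.34 ± 0.24 (SE, n = 3 each, edgeR adjusted p = 0.99988), was 0.02 without them. F2RL1, the protease-activated receptor PAR2, had 38.9, 33.2 and 30.6 CPM in RNF4 with Dox, 47.8, 34.1 and 40.4 CPM in RING mutant with Dox, and 28.6, 34.9 and 32.1 CPM in RNF4 without Dox. It overlapped between groups, with a log2 change of 0.35 ± 0.19 in RING mutant with Dox over RNF4 without Dox (SE, n = 3 each, edgeR adjusted p = 0.99996) that was 0.10 without T3 and T14. All 5 receptors were below 0 in RNF4 with Dox over RING mutant with Dox (median -0.11) and above 0 in RING mutant with Dox over RNF4 without Dox (median 0.24). With T6 alone in its group, 4 were above and 1 below in the first of these contrasts, and 1 above and 4 below in the second.

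For plasminogen activation, PLAUR, the receptor that holds urokinase at the cell surface, had 151, 114 and 147 CPM in RNF4 with Dox, 153, 128 and 139 CPM in RING mutant with Dox, and 154, 98.4 and 126 CPM in RNF4 without Dox. PLAU, urokinase itself, had 12.3, 7.26 and 14.2 CPM in RNF4 with Dox, 11.1, 5.73 and 10.3 CPM in RING mutant with Dox, and 15.8, 8.70 and 12.2 CPM in RNF4 without Dox. PLAU was lower in T4, T5 and T6, 1 library of each group, than in any other library, and the lowest PLAUR values were those of T4 and T5. PLAUR exceeded PLAU per kb by 15.6 to 23.6 times in RNF4 with Dox, 20.1 to 33.5 times in RING mutant with Dox and 14.6 to 17.0 times in RNF4 without Dox.

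Caveolae, the flask-shaped pits of the plasma membrane, need caveolin 1 (CAV1) and the coat protein CAVIN1, while CAVIN2 is a further coat protein that shapes them and is prominent in endothelium. CAVIN2 had 1.05, 1.70 and 3.68 CPM in RNF4 with Dox (T2, T5, T13), which were 22, 38 and 89 reads. It had 0.533, 1.62 and 0.909 CPM in RING mutant with Dox (9, 37 and 16 reads) and 0.479, 0.866 and 0.196 CPM in RNF4 without Dox (7, 27 and 5 reads). The groups with and without Dox of RNF4 did not overlap, and T13 stood 4.05 times above the median library. The log2 change was 2.03 ± 0.68 (SE, n = 3 each, edgeR quasi-likelihood unadjusted p = 0.0137, adjusted p = 0.99998) and 1.40 without T13. The authors' deposited table gave 2.04 for it with an adjusted p of 0.999998. Over RING mutant with Dox the change was 1.06 ± 0.65, 0.42 without T13 and 0.40 without T3 and T14 (SE, n = 3 each, edgeR adjusted p = 0.99988). The 8 endothelial markers found summed to 154, 143 and 250 CPM in RNF4 with Dox, 222, 121 and 198 CPM in RING mutant with Dox, and 105, 152 and 210 CPM in RNF4 without Dox, none of them at 0 counts. The sum was highest in T13, where CAVIN2 was highest too, and T12, with the lowest CAVIN2, had the third highest sum. Most of it was TIE1 in RNF4 with Dox (mean 118 CPM) and in RNF4 without Dox (mean 92.7 CPM). The endothelial genes CDH5 and KDR followed it only in part. KDR was also highest in T13, at 10.2 CPM, but CDH5 was highest in T12, at 12.1 CPM. T3, with a sum of 222 CPM, had CDH5 at 3.38 and KDR at 2.55 CPM. The sum is thus a limited measure of endothelial content. The part of endothelial RNA in the CAVIN2 values was not tested, nor was that of mouse reads.

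CAV1 had 573, 600 and 584 CPM in RNF4 with Dox, 763, 639 and 679 CPM in RING mutant with Dox, and 498, 635 and 604 CPM in RNF4 without Dox. All 3 libraries labelled RING mutant with Dox were above the other 6, T6 by a narrow margin over T4. The log2 change was -0.24 ± 0.22 in RNF4 with Dox over RING mutant with Dox and 0.26 ± 0.22 in RING mutant with Dox over RNF4 without Dox (SE, n = 3 each, edgeR adjusted p = 0.99988 and 0.99996). These were, without T3 and T14, -0.13 ± 0.39 and 0.15 ± 0.38 (SE). CAVIN1 had 190, 447 and 426 CPM in RNF4 with Dox, 506, 335 and 403 CPM in RING mutant with Dox, and 132, 479 and 409 CPM in RNF4 without Dox, with T1 and T2 lowest. Per kb, CAV1 exceeded CAVIN2 by 190 to 650 times in RNF4 with Dox, 472 to 1709 times in RING mutant with Dox and 875 to 3672 times in RNF4 without Dox. The promoter of CAVIN2 is shown as that of the member with the smallest p between groups, from RefSeq on GRCh38.p14, chr2:191847039-191847338, minus strand, with capitals for its single match, the TEAD motif GGAATG, which began 16 bases before the start.
CAVIN2: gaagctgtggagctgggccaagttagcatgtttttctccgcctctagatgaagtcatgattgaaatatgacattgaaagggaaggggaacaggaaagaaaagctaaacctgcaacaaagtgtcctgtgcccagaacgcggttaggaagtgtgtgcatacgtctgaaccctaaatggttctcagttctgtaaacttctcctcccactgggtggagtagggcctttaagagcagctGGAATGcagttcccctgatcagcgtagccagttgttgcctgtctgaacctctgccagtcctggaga

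The column numbers fall into 3 runs, T1 to T3, T4 to T6 and T12 to T14, each with 1 library of every group; the labels do not say what a run is. In an edgeR quasi-likelihood F-test among the runs, 0 members and 0.0% of all genes passed at an adjusted p under 0.05, and the smallest adjusted p of a member was 0.0829. The likelihood ratio test called 9 members, beside 21.3% of all genes, and leaving out T3 with the F-test called 17, beside 37.4%. At an unadjusted p under 0.05 there were 10 members (30.3%), beside 30.5% of all genes, so the members took the share of the table at large. They were S100A2, S100A6, S100A10, ANXA1, ZEB2, SNAI1, CDH1, CDH11, NGFR and PLAU. For the groups, the same kind of test had 1 member, CAVIN2, at an unadjusted p under 0.05, beside 1.1% of all genes. S100A2, S100A6, S100A10, ANXA1, NT5E and PLAUR were higher in T1, T2 and T3 than in any other library, as were 11.1% of all genes. CDH1, CDH11, LAMB3 and NGFR were higher in T12, T13 and T14 than in any other, as were 7.95% of all genes.

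**Figure D4:**
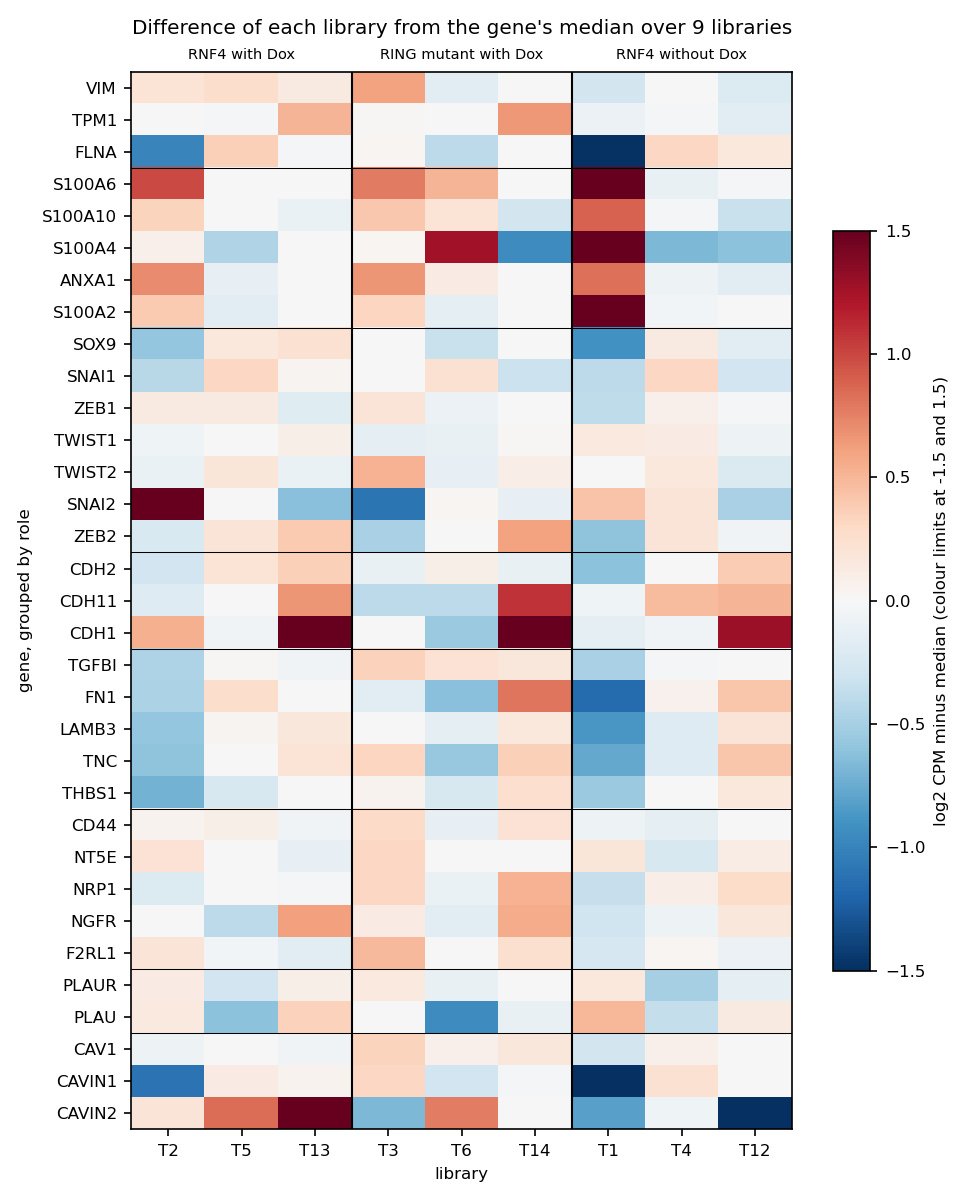
Log2 CPM of each of the 33 genes in each library minus the gene's median over the 9 libraries (colour, limits at -1.5 and 1.5), libraries by group, genes by role. T1 is red for the S100 genes and ANXA1 and blue for FLNA, FN1 and CAVIN1, and T2 has much the same pattern. CAVIN2 is red in all 3 libraries of RNF4 with Dox, faintly in T2 (0.19), and also in T6 of the RING mutant (0.77).

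Within runs, each group can be compared at 1 library per group. RNF4 with Dox was above RNF4 without Dox in all 3 runs for VIM, by 0.48, 0.27 and 0.34 (log2), for SOX9, by 0.33, 0.02 and 0.39, and for CAVIN2, by 1.004, 0.90 and 3.71. That made 3 members (where 8.28% of all genes were above in 3 runs), and 2 members, S100A2 and THBS1, were below in all 3 (8.73% of all genes). RNF4 with Dox was below the libraries labelled RING mutant with Dox in all 3 runs for TPM1, TGFBI, NT5E, F2RL1 and CAV1, and above for TWIST1, CDH1, PLAU and CAVIN2, at 8.58% and 11% of all genes. Against RNF4 without Dox, the RING mutant with Dox was above in all 3 runs for TPM1, TGFBI, CD44, CAV1 and CAVIN2, and below for S100A2 and PLAU, at 5.9% and 8.46% of all genes.

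Deviations went with transcript length in several libraries, most in T1. Across the 33 members, whose longest principal transcripts run from 600 to 9541 bases, the Spearman correlation of the deviation from the gene's median with length was -0.70 in T1 and -0.55 in T2, against -0.42 and -0.27 over 18163 tested genes. T6 and T3 had -0.51 and -0.35 for members, against -0.0041 and 0.05 for all genes. The opposite sign stood in T12, at 0.65 for members and 0.13 for all genes, and in T14, at 0.51 against -0.10, while T5, T4 and T13 had 0.37, 0.30 and 0.16 for members. These points share their library, and no p is given. In T1 the 9 members under 2 kb had a median deviation of 0.15 and the 9 over 5 kb one of -0.56, where all genes of those lengths had 0.43 and -0.30. T1 was the lowest library for 14 of the 33 members (42.4%, against 25.2% of all genes) and T3 the highest for 9 (27.3%, against 7.24%). The S100 genes at the short end and FLNA, FN1 and TNC at the long end therefore lay on opposite sides in T1.

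**Figure D5:**
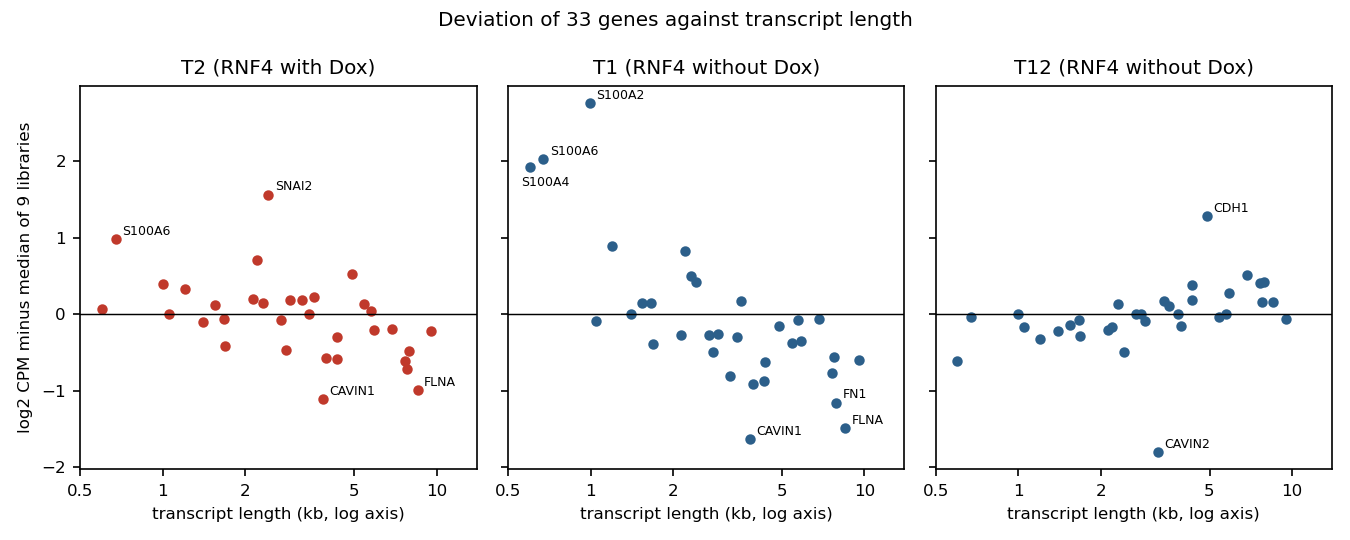
Deviation of each of the 33 genes from its median over 9 libraries (log2 CPM) against transcript length in kb (log axis) in T2, T1 and T12. Short transcripts such as S100A2, S100A4 and S100A6 lie high and long ones such as FLNA and FN1 lie low in T1, and the slope is reversed in T12.

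A second list of 48 invasive-state genes that are not among the 33 was tested in the same fit. All 48 were tested and 0 passed in each contrast (0.0% of all genes). Their log2 change was above 0 for 22 and below 0 for 26 in RNF4 with Dox over RNF4 without Dox, for 16 and 32 over RING mutant with Dox, and for 32 and 16 in RING mutant with Dox over RNF4 without Dox, where 44.3%, 55.8% and 43.2% of all genes were above 0. At an unadjusted p under 0.05 there were 2 in each contrast, where 0.596%, 1.35% and 1.75% of all genes were. PRRX1, a homeobox factor of mesenchyme, had 53.8, 54.6 and 54.7 CPM in RNF4 with Dox, 84.7, 88.8 and 103 CPM in RING mutant with Dox, and 68.9, 79.9 and 77.9 CPM in RNF4 without Dox. The 3 groups did not overlap, with RNF4 with Dox lowest. Its log2 change was -0.47 ± 0.16 over RNF4 without Dox (unadjusted p = 0.0167) and -0.76 ± 0.17 over RING mutant with Dox (unadjusted p = 0.00102; SE, n = 3 each, edgeR quasi-likelihood test). EFEMP1, a secreted matrix glycoprotein, had 18.1, 12.9 and 12.1 CPM in RNF4 with Dox, 9.18, 12.4 and 14.5 CPM in RING mutant with Dox, and 8.48, 8.47 and 4.09 CPM in RNF4 without Dox, which was lowest throughout. Neither gene passed after adjustment over all genes. Of 17 melanocyte and proliferative-state genes, 13 were tested and 0 passed in any contrast, with 1 at an unadjusted p under 0.05 in each, beside the same shares of all genes. In RNF4 with Dox over RNF4 without Dox 6 of them were above 0 and 7 below.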

How the data were processed

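RNA was measured in 9 libraries, 3 per group. Per the labels' protocols, poly(A) RNA (800 ng per library) went into stranded libraries, read as single 50-base reads. TopHat2 2.0.13, HTSeq 0.6.0, DESeq2 1.10.1 and GRCh38 are named in the submitters' processing notes. The authors deposited raw counts per gene, the same in all 3 tables, with their own log2 fold changes and p-values per comparison. Column names give the group but not the sample, so libraries are named by column.

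Counts were used as deposited. Genes passing filterByExpr (18618) were fitted in edgeR 4.0.16 (R 4.3.3), all 9 libraries in 1 model with TMM factors and 1 mean per group, and tested with the two-sided quasi-likelihood F-test with Benjamini-Hochberg adjustment. A standard error is the size of the log2 change divided by the root of its F. CPM uses TMM-scaled totals, and lengths are those of the longest APPRIS principal transcript in GENCODE 29. Alternatives used DESeq2 1.42.0, limma 3.58.1 (voom), other factors and filters, left-out libraries and a replicate block of the runs of column numbers. Within a run, deviations from group means were correlated by over 0.1 in every pair with RNF4 with Dox, but not in 2 of the 3 pairs of RING mutant with Dox and RNF4 without Dox. The labels give these runs no meaning. The procedure was run on simulated counts with known fold changes and the same spread for every gene. Those counts held no differences between runs and no outlying library, so they do not cover the variation seen here. Values in every library are given for the most abundant member of each role, the 5 members with the smallest p per contrast, and members whose groups did not overlap. A few others, and marker genes, were added after their values were seen. The members and lists were chosen with earlier results of these data known.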

Additional observations from a re-analysis of the deposited data

How the results depend on the processing

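No member was called in any of the 3 contrasts under the alternatives run, 19 for RNF4 with Dox over RNF4 without Dox and 20 for each of the others, and the smallest adjusted p of a member among them was 0.194. Over all genes, calls in RNF4 with Dox over RNF4 without Dox, RNF4 with Dox over RING mutant with Dox, and RING mutant with Dox over RNF4 without Dox numbered 3, 38 and 109 without the filter on low counts, 3, 1 and 4 with DESeq2, and 1, 3 and 5 with edgeR's likelihood ratio test. Leaving out 1 library gave 0 to 1 call in the first (1 without T6) and 0 in the others, and leaving out T1 and T2 gave 1 in the last. Without T3 and T14 the members' median was 0.12 in RNF4 with Dox over RING mutant with Dox and -0.052 in RING mutant with Dox over RNF4 without Dox, which voom put at 0.00044. S100A4 in RNF4 with Dox over RNF4 without Dox was 0.27 with voom, 0.44 without T1 and T2, and -1.26 to 0.54 with 1 library left out. S100A2 spanned -1.86 to 0.12 there and -1.88 to 0.10 in RING mutant with Dox over RNF4 without Dox, where it was 0.11 without T1 and T2. CDH1 spanned -0.34 to 1.97, SNAI2 in RNF4 with Dox over RING mutant with Dox was -0.085 with voom, and NRP1 was 0.025 without T3 and T14; the cause was not tested. Among runs of column numbers, 10 members were called without the filter (beside 12.3% of all genes), 9 by the likelihood ratio test (21.3%), 3 with an offset for transcript length that was chosen after seeing the data (8.05%), and 0 to 17 with 1 library left out (17 without T3, beside 37.4%, and 3 without T6, beside 11.7%). In all, 324 recomputed changes of named members kept their sign and 9 did not.

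The replicate numbers in the titles repeat within a group and the columns carry none. As a replicate block, the runs of column numbers gave 0 members and 0 genes called in each contrast, with medians of 0.09 in RNF4 with Dox over RNF4 without Dox, -0.07 in RNF4 with Dox over RING mutant with Dox, and 0.20 in RING mutant with Dox over RNF4 without Dox. Deviations of libraries of 1 run were correlated by 0.438 to 0.675 between RNF4 with Dox and RNF4 without Dox and by 0.157 to 0.569 between the 2 groups given Dox. Between RING mutant with Dox and RNF4 without Dox, T3 with T1 (0.0861) and T6 with T4 (0.00044) were under 0.1. The block changed no call; with it S100A4 in RNF4 with Dox over RNF4 without Dox was -0.46 and S100A2 -0.96, and -0.96 in RING mutant with Dox over RNF4 without Dox. CDH1 and CAVIN2 rest on few reads, and 3 libraries per group limit what can be detected.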

Other observations

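In the lists of other invasive-state genes and fibroblast markers, 2 of the genes with the smallest p are given here. TAGLN, an actin-binding protein of smooth muscle and mesenchyme, was at 34.6 ± 10.8 CPM in RNF4 with Dox, 18.3 ± 1.23 CPM in RING mutant with Dox and 38.3 ± 22.5 CPM in RNF4 without Dox (SD, n = 3 each), and the 3 libraries labelled RING mutant lay below the other 6. PDPN, a glycoprotein of fibroblasts and lymphatic endothelium, was at 3.76 ± 3.56 CPM in RNF4 with Dox, 0.394 ± 0.256 CPM in RING mutant with Dox and 3.63 ± 2.96 CPM in RNF4 without Dox (SD, n = 3 each). Neither gene passed after adjustment over all genes.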
